A study of Drosophila melanogaster with 15 samples.

Results

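Gene expression in the brains and imaginal discs of larvae labelled as carrying too many centrosomes was set directly against that of larvae labelled as lacking them. The first group, called SakOE here, has the genotype Sak overexpression, and the second has the genotype DSas-4 mutant. Each group had 3 arrays, of 15 in the series, and neither group was pooled with any other strain. Within a group, arrays correlated at 0.993 or more in SakOE and 0.988 or more in DSas-4 over the tested genes. The labels name neither the driver of the Sak transgene nor the DSas-4 allele, and they give no more of the fly lines than these names. All groups were wandering larvae of the 3rd instar raised at 25 °C, and tissue of 10 larvae was pooled for each array. The remaining arrays, 3 each, came from a DSas-6 mutant, also labelled as lacking centrioles, and from the wild types w67 (genotype white wild type) and OregonR. They entered the estimate of the spread and are given only to show where the levels of other strains lay. The comparison runs over genes: 11982 had a probe set (a group of probes that measures 1 transcript) assigned to a single symbol, and 6973 of these reached a log2 value of 4 in at least 3 of the 15 arrays and were tested.

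Centrosomes organise microtubules around a pair of centrioles. Sas-4 is needed to build the centriole wall, and SAK, also known as Plk4, is the kinase that starts centriole duplication, so that excess kinase yields extra centrioles. Fly larvae develop to a late stage without centrioles, with spindles formed by chromatin and augmin pathways. Larval brains hold asymmetrically dividing neuroblasts, which use the centrosome to orient the spindle, and imaginal discs are dividing epithelia that later form adult structures.

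All values below are log2 expression, with each array shifted so that the medians over the tested genes were equal, and differences are SakOE minus DSas-4. Errors are SD with n = 3 arrays unless an SE of a difference is named. Genes called higher or lower passed an adjusted p of 0.05 in limma, over all tested genes. The shift matters, since the deposited values of SakOE lay 0.11 below those of DSas-4 at the median gene. The lowest deposited value was 2.181 on every SakOE array and 2.174 on every DSas-4 array, the latter also the lowest of every w67 array, with 2.180 on OregonR and 2.178 on DSas-6, so that any separate normalization runs and the groups cannot be told apart. Where a statement rests on small differences, the count of genes called in the same direction under 4 scalings is given too: this one, the deposited values, quantile normalization, and centring on all single-symbol probe sets.

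The targeted genes were examined first. Sas-4 stood at 7.49, 7.55 and 7.65 in SakOE and 4.61, 4.73 and 5.04 in DSas-4. The groups did not overlap, and the difference was 2.77 (limma, SE 0.12, adjusted p = 6.55e-09), with w67 at 7.55 and OregonR at 7.72 on the side of SakOE. SAK had values of 7.55, 7.60 and 7.63 in SakOE and 7.68, 7.72 and 7.96 in DSas-4, a difference of -0.19 (limma, adjusted p = 0.197), and it did not rise in the SakOE arrays. On the deposited values it was called lower there, at -0.31 (limma, adjusted p = 0.0259). Whether its single probe set lies in the part that the transgene carries is not known here, so SAK does not check that label. Sas-6, the cartwheel protein of the centriole, differed by -0.026 (limma adjusted p = 0.884). One of the array's control probe sets, to which the annotation gives no gene and which was singled out after its values were seen, read 8.68 ± 0.094 in SakOE and 2.12 ± 0.0073 in DSas-4. Markers of the labelled tissue were present in both groups: the neuronal gene elav at 11.97 in SakOE and 12.04 in DSas-4, the glial gene repo at 10.19 and 9.60, the neuroblast gene dpn at 9.16 and 9.36, the eye selector ey at 7.82 and 7.90, and the wing selector vg at 8.42 and 8.50. None of 22 gut markers on the array passed the filter, and 2 of 16 salivary gland and 3 of 29 testis markers did. More passed in other tissue lists: 20 of 21 fat body genes and 27 of 33 haemocyte and lymph gland genes. So did 12 of 17 ring gland, 21 of 38 trachea and cuticle, 8 of 14 oenocyte and 9 of 22 muscle genes.

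SakOE and DSas-4 differed in 1518 genes, 21.8% of those tested, with 804 higher in SakOE (11.5%) and 714 lower (10.2%). Most differences were small. Their median size was 0.35, a 1.27-fold difference, against 0.12 over all tested genes, and 1088 of the called genes differed by less than 0.5. At least 1 log2 unit separated the groups for 106 called genes (1.52%), of which 56 were higher (0.803%) and 50 lower (0.717%) in SakOE. The 3 SakOE arrays did not overlap the 3 DSas-4 arrays for 1462 of the called genes (21% of all tested), and 38.9% of all tested genes showed such separation whether called or not. Under all 4 scalings 794 genes were called in the same direction, 422 higher and 372 lower, and 104 of the 106 large differences were among them. On the deposited values the split turned to 422 higher and 1965 lower, on quantile-normalized values it was 821 and 658, and with centring on all single-symbol probe sets 1198 and 379. The count fell to 926 without SakOE replicate 2, to 941 without DSas-4 replicate 3 and to 919 in a fit on these 6 arrays alone. Of the 106 large differences, 100 were called in every fit that left out 1 array. In bulk tissue, fewer cells of a type and less RNA per cell cannot be told apart.

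**Figure D1:**
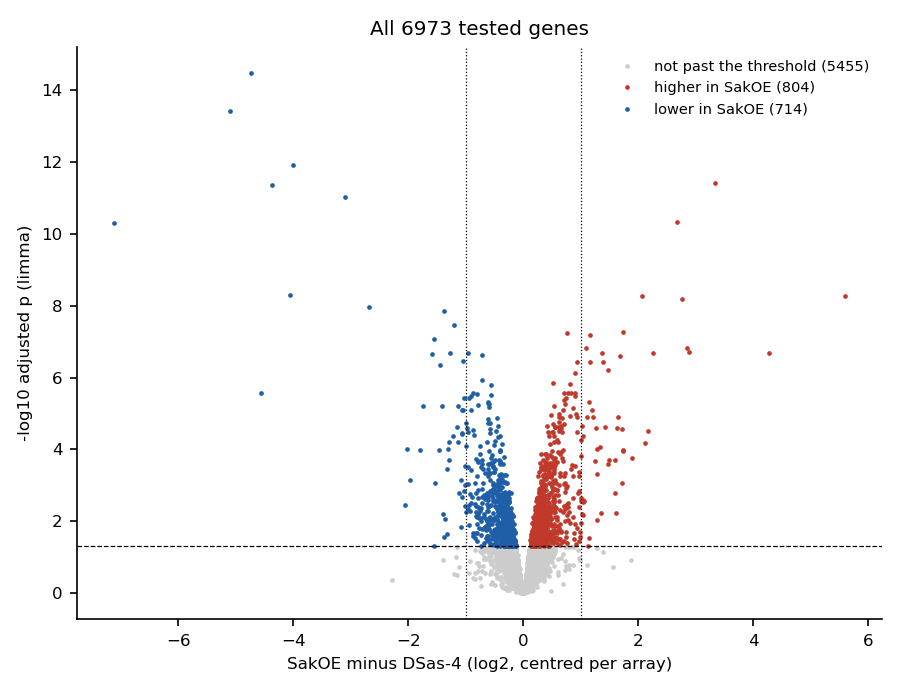
Difference between SakOE and DSas-4 (horizontal axis, log2) against -log10 of limma's adjusted p (vertical axis) for all 6973 tested genes, each a point. The dashed line is an adjusted p of 0.05 and the dotted lines mark 1 log2 unit; 804 genes are higher in SakOE, 714 lower, and most of them lie inside the dotted lines.

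Among the genes highest in SakOE relative to DSas-4, some stood apart from the wild types in SakOE and others in DSas-4. CG32055, named by identifier only, stood at 7.40, 7.49 and 8.72 in SakOE and at 2.17, 2.22 and 2.40 in DSas-4, at least 14.6-fold higher when the dim side is set to the filter level of 4 (limma, adjusted p = 5.34e-09). DSas-6 and both wild types were under 4 as well, with means of 2.19, 2.14 and 2.22. Ir76a, an ionotropic chemoreceptor gene, was 8.83, 8.94 and 8.96 in SakOE and 3.76, 4.87 and 5.29 in DSas-4, a difference of 4.27 (SE 0.27, limma adjusted p = 2.11e-07). Here the wild types, at 8.79 and 8.92, and DSas-6, at 8.94, lay with SakOE, and the DSas-4 arrays spread over more than a log2 unit. Its probe set is of a kind that can cross-match further transcripts. alphaTub85E, an alpha-tubulin of developing muscle and sensory organs, was 8.33, 8.68 and 9.27 in SakOE and 5.81, 5.90 and 5.90 in DSas-4, 7.42-fold higher (limma adjusted p = 1.93e-07). Its wild-type levels of 5.91 and 6.24 were close to DSas-4. Of the 6 tested alpha- and beta-tubulin genes it was the only one called (16.7%, beside 21.8% of all genes). With alphaTub85E included, 4 of the 6 had an unadjusted p under 0.05 in limma, beside 2566 of all 6973 tested genes.

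Gabat, the transaminase that breaks down GABA, was 5.89, 5.91 and 6.03 in SakOE and 3.13, 3.33 and 3.36 in DSas-4, at least 3.84-fold higher (limma adjusted p = 4.56e-11). It was the only called gene of 8 tested genes of GABA synthesis, breakdown, transport and reception (12.5%, beside 21.8% of all genes). With Gabat included, 4 of the 8 had an unadjusted p under 0.05 in limma, beside 2566 of all 6973 tested genes. CG5618 (4.76-fold), CG13053 (4.34-fold), CG13023 (4.21-fold), CG8420 (3.33-fold), CG7720 (3.13-fold, probe set possibly shared) and CG34247 (3.05-fold) are named here by identifier only. Ada2a, a histone acetyltransferase adaptor, was 3.73-fold higher, with 6.89, 6.94 and 6.95 in SakOE and 4.27, 5.16 and 5.64 in DSas-4. The glutathione transferase gene GstT4 was 3.35-fold higher, CG15756 3.04-fold, CG14191 3.03-fold, CG11370 2.79-fold and CG10962 2.68-fold. From levels under 4 on all DSas-4 arrays, CG14662 was at least 4.83-fold higher, dsx-c73A at least 2.82-fold, CG13032 at least 2.77-fold, CG8301 at least 2.23-fold, CG18599 at least 1.76-fold and dpr4, an immunoglobulin-domain adhesion gene, at least 1.73-fold. The adjusted p of these genes (limma) was at most 0.00585.

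In the other direction the largest difference was in Hsc70-2, which encodes a chaperone of the Hsp70 type. It stood at 9.31, 9.32 and 9.45 in DSas-4 and at 2.23, 2.23 and 2.26 in SakOE, at least 41-fold lower in SakOE (limma adjusted p = 4.92e-11), with DSas-6 at 2.19 and the wild types at 2.21 and 2.72. The same arrangement, with DSas-4 alone above 4 in its group mean, held for CG31157, lower by at least 7.87-fold, for CG31287, by at least 6.15-fold, and for GILT3, a lysosomal thiol reductase gene, by at least 7.53-fold. CG7900 was arranged the other way: 2.24, 2.26 and 2.40 in SakOE, 7.30, 7.36 and 7.53 in DSas-4, 7.81 in w67 and 7.82 in OregonR. It was lower in SakOE by at least 10.5-fold. CG11999 (16-fold, 5.55, 5.56 and 5.86 against 9.58, 9.65 and 9.75) and Brf, which helps RNA polymerase III start transcription (8.55-fold, 4.72, 4.91 and 4.99 against 7.83, 7.96 and 8.12), were likewise low in SakOE and near the wild-type levels in DSas-4. These groups were far apart relative to the spread of their arrays, with an SE of 0.081 for CG11999 and 0.078 for Brf (limma adjusted p = 1.16e-12 and 9.55e-12).

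CG43085 was 23.6-fold lower in SakOE, at 4.87, 5.93 and 6.94 against 10.19, 10.47 and 10.76 in DSas-4. Further genes lower in SakOE were CG7650 (at least 5.09-fold), the cuticle protein genes Cpr49Ah (4.14-fold) and Cpr64Aa (2.51-fold), the cell-surface immunoglobulin gene Dscam3 (4.04-fold), krimp of the piRNA pathway (at least 3.54-fold) and CG31248 (at least 1.46-fold). The glycosyltransferase gene Ugt302K1 was 2.94-fold lower, CG7966 3.33-fold, CG7386 2.88-fold, CG12947 2.77-fold, CG6293 2.63-fold, hzg 2.6-fold and the kinase gene Pka-C3 2.5-fold. The orphan nuclear receptor gene svp was 2.73-fold lower, at 7.43, 7.48 and 7.56 in SakOE and 8.92, 8.94 and 8.96 in DSas-4. Hml, which encodes the haemocyte clotting protein hemolectin, was 2.58-fold lower with a wide spread in DSas-4, 5.74, 5.99 and 7.69 against 4.80, 5.23 and 5.29 in SakOE (limma adjusted p = 0.0273). The Hml call was lost without SakOE replicate 2, without SakOE replicate 3 and in the fit on 6 arrays. The adjusted p of the other genes named in this direction was at most 0.0227 (limma, Cpr64Aa); the Cpr64Aa call was lost in the fit on 6 arrays and without replicate 2 or 3 of either group.

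**Figure D2:**
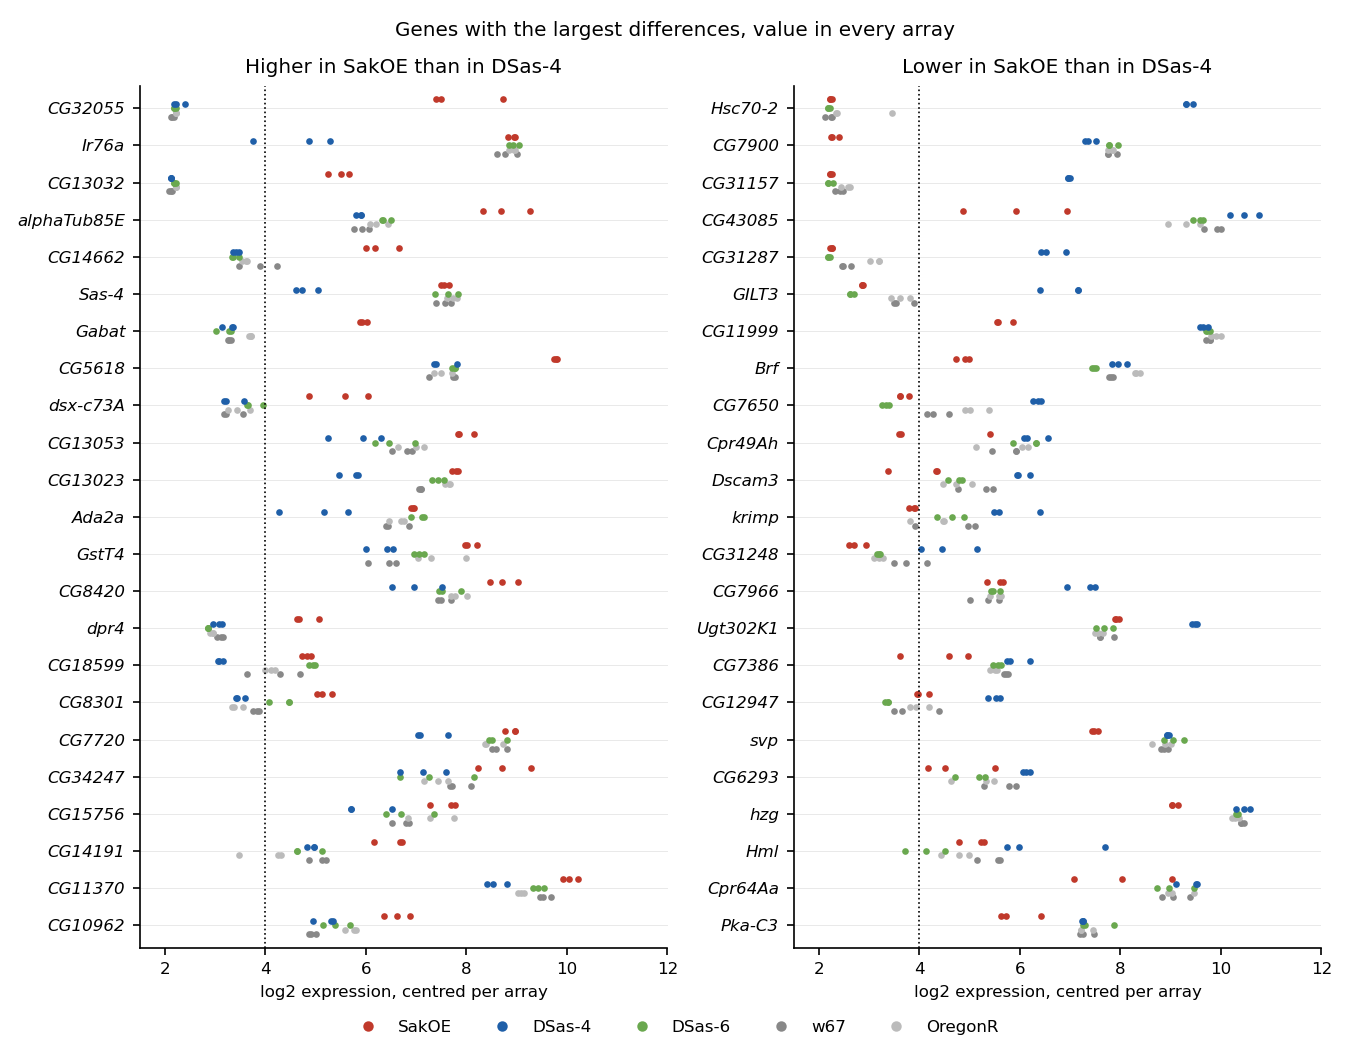
Log2 expression, centred per array, on every array for the 23 genes highest and the 23 lowest in SakOE relative to DSas-4; each point is an array, coloured by strain, and the dotted line is the filter level of 4. The grey wild-type points sit with DSas-4 for CG32055, alphaTub85E, CG7900 and Brf and with SakOE for Ir76a, Sas-4, Hsc70-2 and Ugt302K1.

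Where the wild types stood was then counted, with no test, because the direct comparison alone does not show which strain departs. The mean of w67 and OregonR was closer to DSas-4 for 35 of the 56 large differences in which SakOE was higher and for 29 of the 50 in which it was lower. It was closer to SakOE for the other 21 and 21. Over all 1518 called genes the wild types were closer to DSas-4 for 957 (63.0%), beside 54.3% of all 6973 tested genes. The counts differed between the wild types, of which w67 shares its lowest deposited value with DSas-4. Taken alone, a count added after the values were seen, w67 was closer to DSas-4 for 72.2% of called and 59.9% of all tested genes, and OregonR for 51.2% and 48.0%. In 28 of the 106 large differences 1 of the groups was under 4 on all its arrays.

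Genes of the endoplasmic reticulum, where secreted and membrane proteins are folded, were higher in SakOE as a list. Like the other lists, it was chosen with earlier results of these data known, so its counts are a description. Of 16 tested chaperones and stress sensors, 10 were higher and 1 lower in SakOE, beside 11.5% and 10.2% of all genes, and 9 were higher under all 4 scalings and under every leave-one-out fit. The median difference of the list was 0.40, beside 0.0022 over all tested genes. CaBP1, a protein disulphide isomerase, was 12.83, 13.003 and 13.01 in SakOE and 11.98, 12.10 and 12.27 in DSas-4, 1.78-fold higher (limma adjusted p = 2.7e-06). Gp93, the Hsp90 of this compartment, was 13.11, 13.24 and 13.27 in SakOE and 12.32, 12.35 and 12.52 in DSas-4, 1.75-fold higher (adjusted p = 1.52e-06). In each case the lowest SakOE array lay above every DSas-4 array.

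Manf, a secreted neurotrophic factor that binds the chaperone BiP, was 12.23, 12.34 and 12.34 in SakOE and 11.43, 11.45 and 11.67 in DSas-4, 1.72-fold higher (limma adjusted p = 2.7e-06). Hsc70-3, which is BiP itself, was 14.00, 14.09 and 14.18 in SakOE and 13.38, 13.44 and 13.60 in DSas-4, 1.53-fold higher (limma adjusted p = 3.05e-05). Chosen after their values were seen, the BiP exchange factors Grp170 (1.47-fold) and Sil1 (1.41-fold), the degradation factors Herp (1.46-fold) and Hrd3 (1.24-fold), the disulphide isomerase ERp60 (1.43-fold) and calnexin, Cnx99A (1.19-fold), were the remaining higher genes. Cnx99A was not called on the deposited values. The sensor Ire1 differed by -0.34 (limma adjusted p = 0.0444), a call lost after quantile normalization. The transcription factors and other sensors of the stress response were not called: Atf6 differed by 0.041, crc, the fly ATF4, by 0.083, and the kinase PEK by 0.14 (limma adjusted p = 0.702, 0.214 and 0.115). For all 16 genes the mean of both wild types was closer to DSas-4. The list's median relative to DSas-4 was 0.40 in SakOE, -0.021 in DSas-6, -0.037 in w67 and 0.014 in OregonR.

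**Figure D3:**
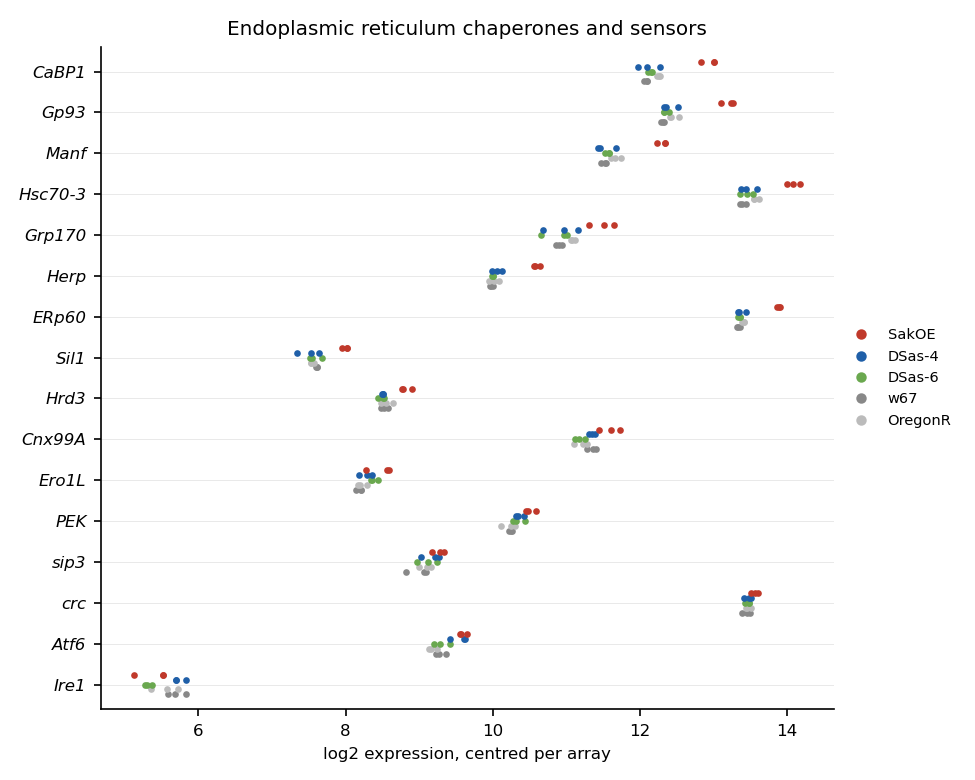
Log2 expression, centred per array, of the 16 tested chaperones and stress sensors of the endoplasmic reticulum; each point is an array, coloured by strain. The 3 SakOE points lie to the right of all 12 other arrays for CaBP1, Gp93, Manf and Hsc70-3, and overlap them for Atf6.

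After these values were seen, 3 further lists of the secretory pathway were drawn up, and they are described without a test of the lists. Of 84 tested genes in them, 56 were called higher in SakOE and 0 lower, beside 11.5% and 10.2% of all genes, and 79 had a positive difference. Under all 4 scalings 38 were higher, where 11.4% of all tested genes were called in either direction. The median was 0.25. For import, signal peptide cleavage and N-glycosylation 23 of 30 were higher, including Spase22-23 of the signal peptidase (1.66-fold), Ostgamma of the oligosaccharyltransferase (1.59-fold), SrpRalpha, the receptor of the signal recognition particle (1.42-fold), and Sec61alpha, the channel (1.25-fold, not called under all scalings). For folding and degradation 16 of 27 were higher, led by the co-chaperone genes shv and P58IPK. The shv gene was 11.04, 11.35 and 11.37 in SakOE and 9.85, 10.00 and 10.30 in DSas-4, and P58IPK was 10.88, 11.08 and 11.12 in SakOE and 9.82, 9.82 and 9.95 in DSas-4, differences of 1.20 and 1.16 (limma adjusted p = 8.17e-06 and 6.47e-08). The chaperone gene wbl, needed to carry the patterning enzyme Pipe to the Golgi, was 1.97-fold higher. For transport between endoplasmic reticulum and Golgi 17 of 27 were higher, among them Sec22 (1.65-fold), the retrieval receptor KdelR (1.64-fold), the p24 family gene eca (1.43-fold), deltaCOP of the coat (1.4-fold) and the cargo receptor ergic53 (1.37-fold).

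Secretory genes are highly expressed, so the level of all genes was read beside them. Among the 1429 tested genes with a mean from 10 to below 12, 12.2% were higher and 6.93% lower in SakOE, with a median difference of 0.011. Among the 348 at 12 or above, 13.2% were higher and 3.16% lower, with a median of 0.048 (-0.015 after quantile normalization). Markers of strongly secreting tissues were also read. The 2 salivary gland markers past the filter split, with sage 0.42 and fkh -0.75 (limma adjusted p = 0.0164 and 8.01e-05), and their summed level was 6.71 to 6.94 in SakOE and 6.72 to 7.04 in DSas-4. Of 20 fat body genes 3 were higher and 5 lower, with summed levels of 14.76 to 14.79 and 14.79 to 14.83. The 27 haemocyte and lymph gland genes had 0 higher and 6 lower, with summed levels of 14.86 to 15.01 and 14.95 to 15.19. The 21 trachea and cuticle genes had 4 higher and 2 lower and were higher in sum in SakOE, at 14.88 to 14.95 against 14.66 to 14.87. Their part in the result was not tested. Of the fat body, haemocyte and trachea lists 40%, 22.2% and 28.6% were called, beside 21.8% of all genes.

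In lists of DNA replication and mitosis more genes were called lower in SakOE than higher, with small differences and counts that depended on the scaling. Of 33 replication genes, 13 were lower and 1 higher (background 10.2% and 11.5%), with a median of -0.18. Under all 4 scalings 6 were lower. The count was 22 on the deposited values, where 1965 of all 6973 tested genes were lower. With centring on all single-symbol probe sets it was 6, where 379 of all tested genes were lower. It was 5 without SakOE replicate 3 or DSas-4 replicate 3 and 6 without SakOE replicate 2 or DSas-4 replicate 2. In the fit on 6 arrays it was 7. In these last fits 419 to 555 of all tested genes were lower. The median relative to DSas-4 was -0.13 in w67, 0.035 in OregonR and -0.017 in DSas-6, and the summed level of w67, 14.49 to 14.57, overlapped that of SakOE, 14.41 to 14.57, while DSas-4 stood at 14.58 to 14.74 and OregonR at 14.64 to 14.72. Prim2, the large primase subunit, was 6.46, 6.55 and 6.56 in SakOE and 7.25, 7.46 and 7.48 in DSas-4, 1.83-fold lower (limma adjusted p = 2.62e-06). PolE1, the leading-strand polymerase, was 1.42-fold lower, the helicase subunit dpa 1.33-fold and the origin protein Orc2 1.28-fold. Psf1 of the GINS complex was 1.45-fold higher, with 7.14, 7.40 and 7.43 in SakOE and 6.70, 6.74 and 6.93 in DSas-4; there the wild types, at 7.28 and 7.38, lay with SakOE.

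Of 43 genes of the kinetochore, checkpoint, anaphase-promoting complex, condensin and cohesin, 12 were lower and 0 higher, beside 10.2% and 11.5% of all genes (median -0.15), and 5 of them were lower under all 4 scalings. The count was 24 on the deposited values, 5 with centring on all single-symbol probe sets, 7 without SakOE replicate 2 and 5 without DSas-4 replicate 3. Over all 6973 tested genes the numbers lower were, in the same order, 1965, 379, 435 and 419. Nnf1b (1.43-fold) and cal1, the loading factor of the centromeric histone (1.42-fold), thr, the separase subunit (1.33-fold), and the condensin gene Cap-G (1.32-fold) led them. The Nnf1b call was lost after quantile normalization and with any 1 array left out. Of 28 spindle genes 6 were lower and 0 higher, 21.4% called beside 21.8% of all genes, and 4 of them were lower under all 4 scalings. The count was 16 on the deposited values and 3 without SakOE replicate 1, SakOE replicate 2 or DSas-4 replicate 2. Those leave-one-out fits had 593, 435 and 504 lower over all tested genes. The gene mud, which links the spindle to the cortex in neuroblasts, was 5.01, 5.08 and 5.09 in SakOE and 5.40, 5.87 and 5.92 in DSas-4, 1.59-fold lower (limma adjusted p = 0.00778). The kinesin genes Klp10A (1.39-fold, probe set possibly shared) and ncd (1.28-fold) and the gamma-tubulin ring gene Grip75 (1.22-fold) followed.

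Of 19 centriole and pericentriolar genes 26.3% were called, beside 21.8% of all genes. These calls include Sas-4, the gene mutated in DSas-4, so the share is not independent of the design. Sas-4 and Rcd4 (1.19-fold, lost on the deposited values) were higher. Plp, the pericentrin-like protein (1.25-fold), spd-2 (1.25-fold) and ana3 (1.22-fold) were lower, the last pair not after quantile normalization. The 3 lower genes became 12 on the deposited values, where 1965 of all 6973 tested genes were lower. They became 1 without replicate 2 or 3 of either group, fits with 419 to 555 lower over all tested genes. Of 18 cell cycle regulators 33.3% were called, beside 21.8% of all genes. Among them 5 were lower, led by the retinoblastoma genes Rbf2 (1.46-fold) and Rbf (1.27-fold), then mip130 (1.24-fold) and CycB3 (1.23-fold). The gene rux was higher (1.14-fold, lost on the deposited values). The calls of Rbf2 and Rbf alone held under all 4 scalings, and 9 were lower on the deposited values, 2 in the fit on 6 arrays, 8 without DSas-4 replicate 1, 2 without DSas-4 replicate 3 and 3 without any 1 of the other 4 arrays. Of 23 genes of the DNA damage response 30.4% were called, beside 21.8% of all genes. Among them 6 were lower and 1, Irbp18, was higher (1.13-fold, lost on the deposited values). Lower were Corp, near the filter level at means of 3.39 in SakOE and 4.02 in DSas-4, the mismatch repair gene Msh6 (1.53-fold), the checkpoint kinase gene tefu, fly ATM (1.51-fold), and mus304, fly ATRIP (1.41-fold), and 5 were lower under all 4 scalings and 13 on the deposited values. For tefu the arrays read 7.27, 7.35 and 7.41 in SakOE and 7.84, 7.89 and 8.09 in DSas-4, without overlap.

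Of 28 neuroblast fate and temporal factors 8 were lower in SakOE and 0 higher, 28.6% called beside 21.8% of all genes (median -0.21). Of these, 6 held under all 4 scalings, with 15 on the deposited values, 5 without SakOE replicate 2 and 5 in the fit on 6 arrays. Over all 6973 tested genes the numbers lower were, in the same order of fits, 1965, 435 and 456. Apart from svp, these were led by pros, which drives daughter cells out of division: 11.43, 11.48 and 11.54 in SakOE and 12.15, 12.53 and 12.63 in DSas-4, 1.93-fold lower (limma adjusted p = 0.000311). The wild types stood at 12.23 and 12.32 and DSas-6 at 12.81. The temporal factor cas was 1.71-fold lower and Kr, under 4 in SakOE, at least 1.22-fold. The stem cell gene dpn differed by -0.20 (limma adjusted p = 0.119). Summed over the list, levels were 15.03 to 15.07 in SakOE and 15.18 to 15.40 in DSas-4, without overlap. They were 15.09 to 15.20 in w67, 15.14 to 15.23 in OregonR and 15.25 to 15.42 in DSas-6. The mean of both wild types was closer to DSas-4 for 15 of the 28 genes, beside 54.3% of all tested genes.

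Of 30 neuronal genes 13.3% were called, beside 21.8% of all genes. The tachykinin receptor gene TkR86C, the choline acetyltransferase gene ChAT (1.32-fold) and Appl (1.26-fold) were lower and amon, a prohormone convertase, was 1.34-fold higher. TkR86C was under 4 on all SakOE arrays and at 4.15 in DSas-4. Of 18 glial genes 16.7% were called. Among them repo, the glial master regulator, was 10.10, 10.19 and 10.27 in SakOE and 9.59, 9.60 and 9.60 in DSas-4. It was 1.51-fold higher in SakOE (limma adjusted p = 5.37e-05), with wild types at 10.22 and 10.01. wrapper was 1.14-fold higher and nrv2 1.22-fold lower, each lost under 1 of the scalings. Of 24 axon guidance and adhesion genes 20.8% were called, beside 21.8% of all genes. Here caps (1.4-fold) and the netrin receptor gene fra (1.15-fold) were higher and Sema2b (1.4-fold), Dscam1 (1.25-fold) and Eph (1.18-fold) lower. Among these, caps and Dscam1 were called under all 4 scalings.

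Detoxification genes differed in both directions. Of 30 tested, 8 were lower and 6 higher in SakOE, 46.7% called beside 21.8% of all genes. Under all 4 scalings 6 were lower and 3 higher. In the fit on 6 arrays 3 were higher, beside 463 of all 6973 tested genes. Besides Ugt302K1, the glutathione transferase gene GstD3 was 9.79, 9.88 and 9.95 in SakOE and 11.03, 11.05 and 11.14 in DSas-4, 2.29-fold lower (limma adjusted p = 3.38e-08), with wild types at 9.89 and 10.10. The cytochrome P450 genes Cyp12a4 (at least 1.49-fold) and Cyp9f2 (2.02-fold) were lower too. Higher were Cyp4p1 (2.06-fold), GstD9 (1.54-fold), the catalase gene Cat (1.42-fold) and Gclm, a subunit of the enzyme that starts glutathione synthesis (near the filter level, 4.19 against 3.92). Of 18 genes of JNK and JAK/STAT signalling and disc stress 27.8% were called, beside 21.8% of all genes. Among them 4 were lower under all 4 scalings and 1, Irbp18, was higher. The lower genes were the oxidase gene Nox (2.04-fold, 4.44, 4.50 and 4.51 in SakOE and 5.37, 5.55 and 5.60 in DSas-4), scaf (1.64-fold, probe set possibly shared), mol, under 4 in SakOE (at least 1.31-fold), and the JNK phosphatase and target puc (1.33-fold). Of 18 apoptosis genes 16.7% were called, beside 21.8% of all genes. The inhibitor Bruce was 1.53-fold lower. Buffy (1.33-fold) and the initiator caspase gene Dronc (1.3-fold) were higher, though not on the deposited values.

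Of 21 genes of the ecdysone response, the steroid pathway of moulting, 4 were higher and 1 lower, 23.8% called beside 21.8% of all genes. The list's median relative to DSas-4 was 0.32 in SakOE, 0.21 in DSas-6, -0.026 in w67 and 0.073 in OregonR. Its mean log2 level per array overlapped, at 8.57 to 8.90 in SakOE and 8.15 to 8.71 in DSas-4. Arrays did not overlap for 6 of the 21 genes, beside 38.9% of all genes. The nuclear receptor gene Eip78C was 7.03, 7.37 and 7.73 in SakOE and 5.78, 6.20 and 6.32 in DSas-4, 2.42-fold higher (limma adjusted p = 0.000492), with wild types at 7.34 and 7.61. Eip93F (1.69-fold), ImpE1 (1.57-fold) and ImpE2 (1.25-fold, lost after quantile normalization) were higher. The competence factor ftz-f1 was 2.01-fold lower, at 5.99, 6.39 and 6.70 in SakOE and 7.28, 7.39 and 7.42 in DSas-4. The count of higher genes was 9 without DSas-4 replicate 1, 2 without replicate 2 or 3 of either group and 2 in the fit on 6 arrays. Over all 6973 tested genes the numbers higher were, in the same order, 815, 491 to 670 and 463. In the ring gland list (12 genes, 8.33% called) ouib, a regulator of ecdysone synthesis, was 2.12-fold lower.

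Of 27 haemocyte and lymph gland genes 22.2% were called, beside 21.8% of all genes. Besides Hml, the collagen genes Col4a1 (1.93-fold, probe set possibly shared) and vkg (1.75-fold) and the scavenger receptor gene Sr-CI (near the filter level) were lower in SakOE, and 0 were higher. The calls of Hml and vkg were lost without SakOE replicate 2 or 3, that of vkg also without DSas-4 replicate 1, and that of Col4a1 without SakOE replicate 2. The crystal cell enzyme gene PPO1 was 6.79, 7.18 and 7.31 in SakOE and 7.07, 8.21 and 9.62 in DSas-4 and PPO2 was 7.85, 8.06 and 8.28 in SakOE and 8.44, 9.11 and 10.82 in DSas-4, and neither was called (limma adjusted p = 0.285 and 0.118). DSas-4 replicate 1 held the highest DSas-4 value of Hml, PPO1 and PPO2. In all 6 were lower, 5 of them under all 4 scalings. The count was 10 on the deposited values, 4 without DSas-4 replicate 1, 2 without SakOE replicate 2 and 2 in the fit on 6 arrays. Over all 6973 tested genes the numbers lower were, in the same order, 1965, 776, 435 and 456.

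Of 12 heat shock and cytosolic chaperone genes 25% were called, beside 21.8% of all genes. Hsc70-2, stv (1.47-fold) and Hsc70-4 (1.09-fold) were lower, the last pair not under every scaling. Of 29 chromatin modifiers 27.6% were called, beside 21.8% of all genes. Ada2a was higher and 7 were lower, of which osa (1.49-fold) and Mi-2 (1.27-fold) held under all 4 scalings. The count of lower genes was 16 on the deposited values, 2 with centring on all single-symbol probe sets, 4 without DSas-4 replicate 3 and 4 in the fit on 6 arrays. Over all 6973 tested genes the numbers lower were, in the same order, 1965, 379, 419 and 456. Iswi (1.2-fold) and Su(z)12 (1.18-fold) were also among the 7. Of 34 wing, leg and notum genes (14.7% called) caup (1.54-fold), bab2 (1.25-fold) and C15 (1.23-fold) were higher. Lower were ptc, the Hedgehog receptor gene, at 3.99 against 4.80 near the filter level, and kni (1.5-fold). Of 25 eye disc genes (8% called) danr was 1.18-fold higher and svp lower. Of 12 sex determination and dosage compensation genes (25% called) dsx-c73A, msl-3 (1.37-fold) and Sxl (1.26-fold) were higher. Of 18 genes of amino acid breakdown (16.7% called) Faa (1.32-fold) and P5cr (1.18-fold) were higher and LKRSDH (1.95-fold) lower. Of 13 glycolysis genes (15.4% called) fbp (1.39-fold) was higher and Pfk (1.38-fold) lower.

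The shares called in the next lists are to be read beside 21.8% of all genes. Of 29 genes of oxidative phosphorylation (6.90% called) ND-51 (1.17-fold) and ATPsynB (1.11-fold) were higher. Of 25 proteasome genes (12% called) Prosalpha4 (1.23-fold), Prosalpha6 (1.13-fold) and Prosbeta2 (1.11-fold) were higher, and of 9 ribosomal protein genes (11.1% called) RpL23 (1.12-fold). Of these 6 calls that of Prosalpha4 alone held on the deposited values. All 9 ribosomal protein genes had a positive difference and arrays that did not overlap, beside 38.9% of all genes without overlap. Their median relative to DSas-4 was 0.086 in SakOE, 0.094 in DSas-6, 0.086 in OregonR and 0.008 in w67. These medians are smaller than the shift of 0.11 between scalings. The other 26 of the 35 listed ribosomal protein genes had no single-symbol probe set. Of 24 genes of ribosome biogenesis and RNA polymerases I and III (12.5% called), Brf, Polr1H (1.41-fold) and Mtr4 (1.18-fold) were lower. Among the 20 fat body genes (40% called), Lsd-2 (1.42-fold), Idh (1.1-fold) and CG5966 were higher. In the same list 5 were lower, led by Glyp (1.37-fold), ACC (1.34-fold), apolpp (1.32-fold) and Lpin, near the filter level. Of 9 muscle genes (44.4% called) Act87E (1.47-fold) and Strn-Mlck (1.33-fold) were higher and bt (1.76-fold) and Mp20 (1.47-fold) lower. In the trachea and cuticle list (28.6% called) Cpr66D (1.66-fold), TwdlT (1.51-fold), pio (1.35-fold) and Gasp (1.19-fold) were higher and Cpr49Ah and obst-A (1.19-fold) lower. Single genes were lower in the lists for cilia (6 genes, 16.7% called, Oseg1, 1.4-fold), humoral immunity (5 genes, 20% called, dl, 1.22-fold) and oenocytes (8 genes, 12.5% called, svp). The hydrocarbon P450 gene Cyp4g1 stood at 3.81 and 4.14 and was not called (limma adjusted p = 0.739). The 3 tested testis genes had 0 calls in limma and 2 at an unadjusted p under 0.05. Over all 6973 tested genes 2566 had such a p in limma.

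The calls of single list members were not equally firm. Of 172 called genes in the lists, 86 were called in the same direction under all 4 scalings and with any 1 array left out. Of those named above, ana3, spd-2, Rcd4, Klp10A, cal1, Nnf1b, CycB3, mip130, rux, Orc2, Irbp18, Dronc, Buffy, Bruce, mol, Hsc70-4, stv, Ire1, Cnx99A, Cat, Gclm, P5cr, Faa, ND-51, ATPsynB, RpL23, Mtr4, Prosalpha6, Prosbeta2, Oseg1, ChAT, Appl, nrv2, wrapper, Sema2b, fra, Eph, danr, bab2, C15, ImpE1, ImpE2, Sxl, Su(z)12, Iswi, Hml, Col4a1, vkg, dl, Idh, Glyp, Act87E, Mp20, sage, obst-A, Gasp, pio and TwdlT lost the call in at least 1 of these fits. Without SakOE replicates 1, 2 and 3 in turn 34, 61 and 54 calls were lost, and without DSas-4 replicates 1, 2 and 3 15, 56 and 66. Probe sets that can cross-match further transcripts stood for Act87E, Atf6, CG7720, Cnx99A, Col4a1, Dscam1, Eph, Gabat, Hsc70-3, Hsc70-4, Idh, Ir76a, Iswi, KdelR, Klp10A, Sxl, dl, fbp, nrv2, scaf and stv.

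**Figure D4:**
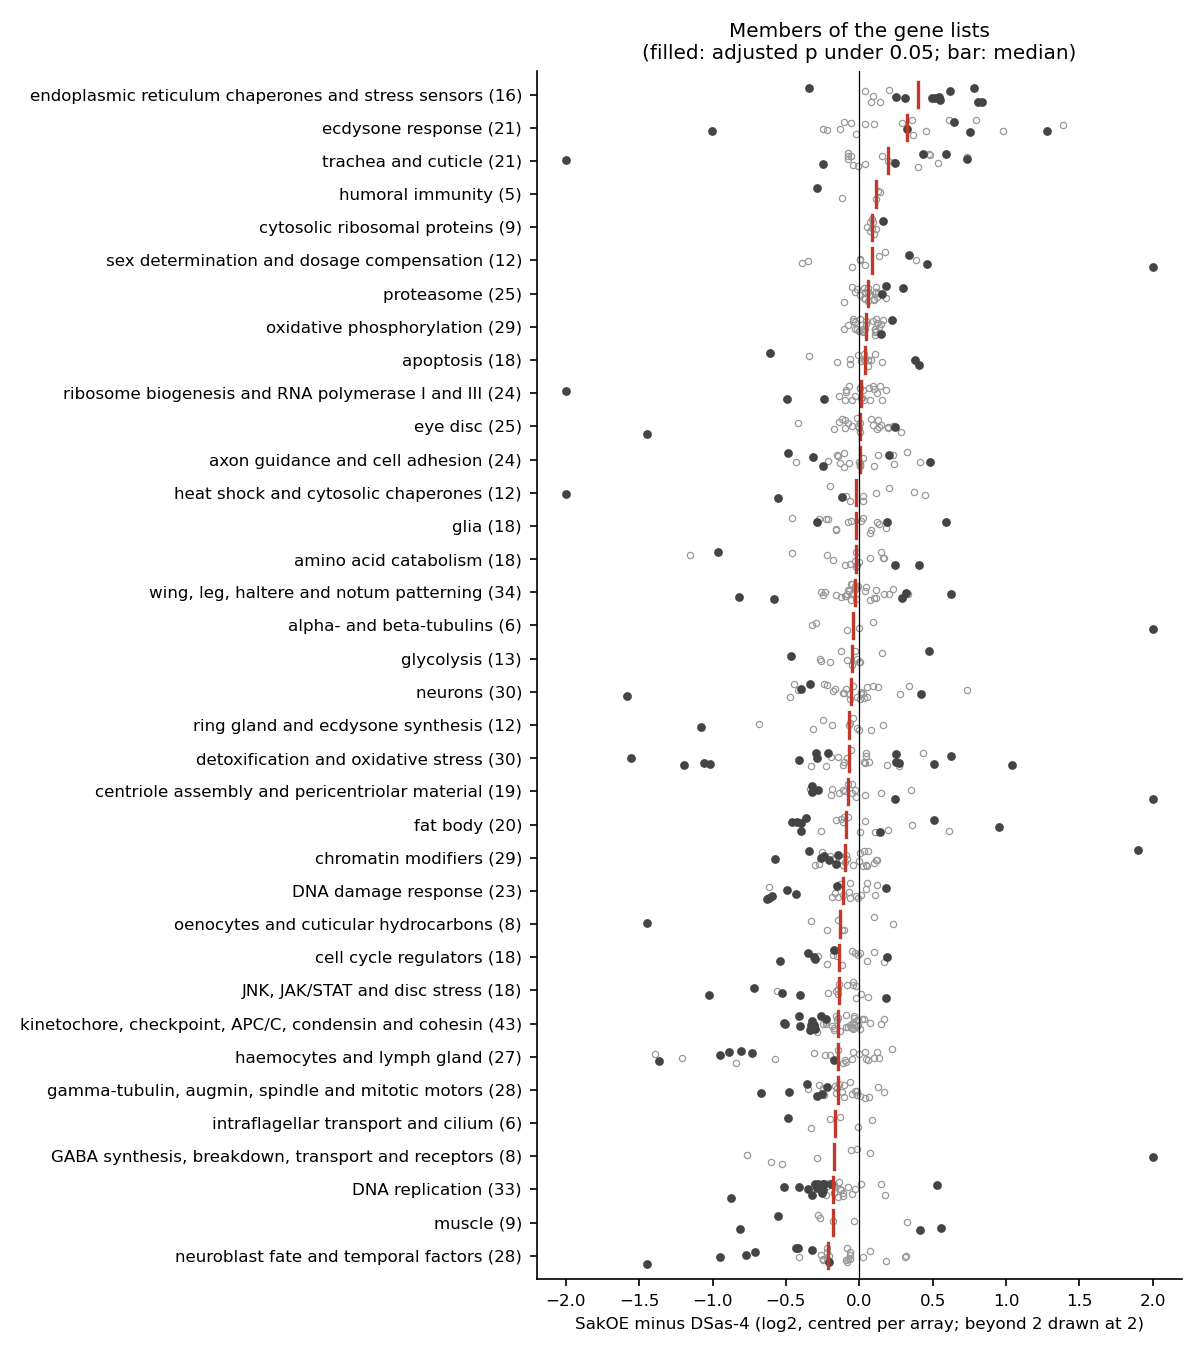
Difference between SakOE and DSas-4 (log2, horizontal axis) of every tested member of the gene lists with at least 5 tested members (vertical axis, number tested in brackets). Differences beyond 2 are drawn at 2. Filled points passed an adjusted p of 0.05, open points did not, and the red bar is the list's median, from 0.40 for endoplasmic reticulum chaperones to -0.21 for neuroblast factors.

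The largest differences were gathered on chromosome 3, which carries Sas-4 on its right arm. Of the 106 large differences, 84 (79.2%) lay there, 37 on 3L and 47 on 3R, although chromosome 3 held 44.4% of the tested genes. The share of tested genes with a large difference was 2.70% on 3L and 2.72% on 3R, against 0.407% on 2L, 0.645% on 2R and 0.680% on X. Calls of any size made up 26.3% of the genes of 3L and 25.9% of 3R, against 18.5% on 2L, 18.2% on 2R and 18.1% on X. On chromosome 4, 12 of 56 genes were called (21.4%), 1 higher and 11 lower, and none of these differed by 1 log2 unit. The wild types were closer to DSas-4 for 26 of the 37 on 3L and 24 of the 47 on 3R, so departures of either strain lay on this chromosome. Along 3R, in windows of 50 tested genes in gene order, called genes made up 28% of the window centred on Sas-4 and between 6% and 44% of all windows with 50 genes. The window at Sas-4 held 4 of the large differences (8%), and the mutated gene Sas-4 is itself counted among them. The windows centred 350 and 400 genes away also held 4, without Sas-4, and no window of 3R held more. In the windows on either side of Sas-4 lay 1 and 0. Hsc70-2, CG31157, CG7900, CG11999 and Brf all lie on 3R. Of the endoplasmic reticulum genes named above, CaBP1 and Herp lie on 2L, ERp60 on 2R, Hsc70-3 and Grp170 on X, and Gp93 and Manf on 3R. The arms of the others, among them Sil1, Hrd3 and Cnx99A, are not given here, and the list was not counted by arm. Which chromosomes carry the transgene and balancers is not in the labels, so strain background and centrosome number cannot be told apart in this comparison.

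**Figure D5:**
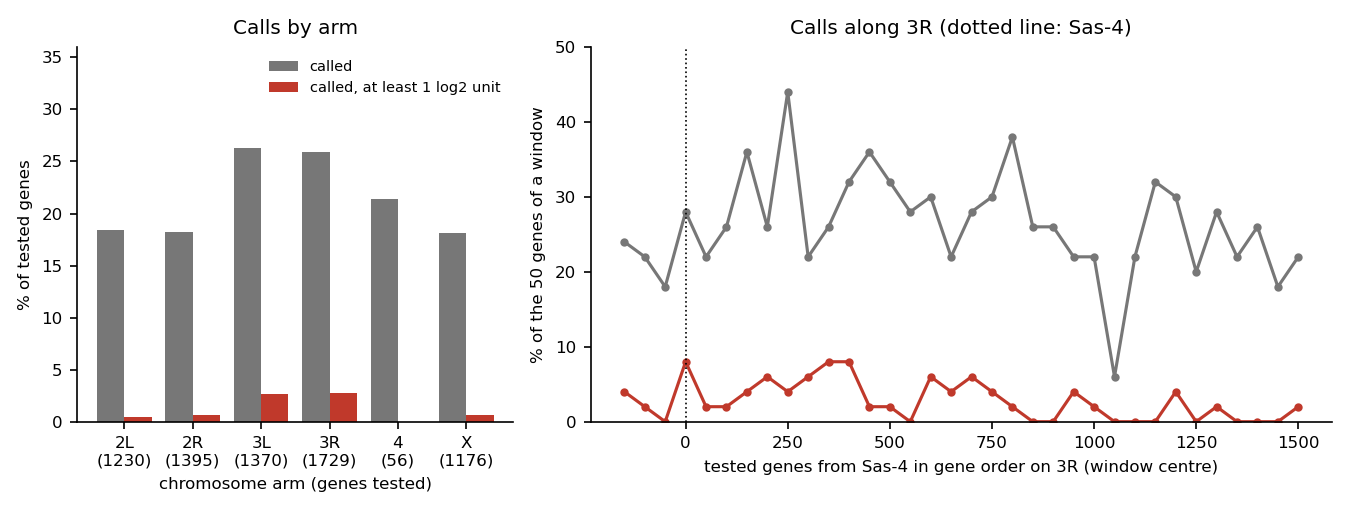
Left, percentage of the tested genes of each chromosome arm that were called (grey bars) and called with at least 1 log2 unit (red bars), with the number tested under each arm. Right, the same percentages in windows of 50 tested genes along 3R, by distance from Sas-4 in gene order. The window at Sas-4 has 28% called, within the range of the arm. It has 8% called with at least 1 log2 unit, Sas-4 itself included. The windows at 350 and 400 have the same 8%, and no window has more.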

How the data were processed

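RNA of 15 samples was hybridised to single-colour Affymetrix Drosophila Genome 2.0 arrays. GCRMA and limma are named in the submitters' processing notes, without versions. What the authors deposited is a table of 1 value per probe set and array, read here as log2 expression because of its range and because GCRMA gives that scale. Probe sets were named from the platform's annotation table, and 13544 of 13647 single-symbol probe sets were found in the RefSeq gene table of Release 6, which gave the chromosome arms and gene order. No genome was used.

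Probe sets reaching 4 on 3 or more arrays were kept, the probe set with the highest mean stood for its gene, and arrays were centred on the median of the tested genes. With limma 3.58.1 in R 4.3.3, lmFit and eBayes estimated a mean for each of the 5 groups from the 15 arrays; the script was tested on simulated data. Tests were two-sided with Benjamini-Hochberg adjustment. Arrays have no depth; their number limits the precision. Replicates are called biological in the labels. The members and the 39 gene lists were chosen with earlier results of these data known. Named are Sas-4, Sas-6 and SAK, the 15 largest called differences in each direction with separate groups and means of at least 4, up to 8 in each direction with 1 group under 4, and up to 4 called members of each list and direction (with no call, the brightest). A further 3 lists of the secretory pathway were drawn up after the values were seen. Alternatives covered scaling, filter, probe sets, prior, arrays fitted, replicate block and each replicate left out. Summed levels are log2 of the sum of the linear values of a list.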

Additional observations from a re-analysis of the deposited data

Results flagged for a closer look

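One of the array's control probe sets, to which the annotation gives no gene and which no comparison of genes used, read 8.68 ± 0.09 (SD, n = 3) in SakOE and stayed under 4 on all 12 other arrays. It drew attention because it carries signal in 1 strain only. It was singled out after its values were seen. Fitted apart from the genes, 4 of 61 control probe sets (6.56%) were called between SakOE and DSas-4 by limma.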

How the results depend on the processing

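The count of 1518 genes (804 higher, 714 lower in SakOE) became 2387 (422 and 1965) on the deposited values, whose median difference was -0.11, 1577 (1198 and 379) with centring on all single-symbol probe sets, 1479 (821 and 658) after quantile normalization and 919 (463 and 456) in the fit on 6 arrays. With no filter on dim probe sets 6729 genes were called (5505 and 1224), of which 4443 were under 4 on all 6 arrays, where the spread is almost nil and the centring itself sets a difference. Leaving out 1 array gave 926 to 1591 genes, 491 to 815 higher and 419 to 776 lower. The filter at 6 (1280), the filter within the 6 arrays (1497), the mean of probe sets (1546) and the trended robust prior (1549) stayed within 1.5 times. With the replicate number as a block 1414 genes were called (758 and 656). The numbers do not pair the arrays: deviations of same-numbered arrays from their group means correlated at -0.32, -0.020 and -0.12, and 0 of 3 SakOE arrays correlated best with the same number. Among values of named genes under the alternatives, 2317 kept direction and call, 298 kept direction but not the call, 2 gained a call, and 4 turned, all of Sas-6, which was not called: it stood at 0.046 with centring on all single-symbol probe sets and at -0.155 to 0.066 with 1 array left out. The cause of the other changes was not tested. Probe sets with several symbols or none were fitted apart, with 246 of 1034 called. Differences near the shift of 0.11 between scalings cannot be read as directions.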
